A study of Homo sapiens with 12 samples.

Results

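The 9 genes examined here stand upstream of the interferon-stimulated genes. They are the RNA sensors IFIH1 and TLR3, the interferon regulatory factors IRF1, IRF2, IRF3, IRF7 and IRF9, the signal transducer STAT2, and IFNB1, the gene for interferon beta. They were chosen by name for these roles, with earlier results of these data known, and all 9 were found among the 58721 genes of the count table. Their levels came from RNA sequencing of EW8 and TC71, established cell lines of Ewing sarcoma, a bone and soft tissue cancer driven by the fusion protein EWS-FLI1. All cells carried a lentiviral Tet-On system with the coding sequences of c-Jun and c-Fos behind a doxycycline-inducible promoter, the transactivator being driven by the EF1 alpha promoter, and had been selected with geneticin and puromycin. Each line had 3 vehicle (DMSO) libraries without doxycycline and 3 libraries from cells given doxycycline at 2000 ng/ml, all at 72 h, which made 12 libraries in 4 groups. The design asked which genes respond when c-Jun and c-Fos, the classic subunits of the transcription factor AP-1, are raised together. No doxycycline-treated cells without the transgenes were analysed here, so effects of doxycycline itself and of AP-1 cannot be told apart. Whether the 3 libraries of a group were separate cultures was not given, so p-values measure the spread between libraries, which may be technical.

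IFIH1 (also called MDA5) binds long double-stranded RNA in the cytoplasm and signals through MAVS, whereas TLR3 binds double-stranded RNA inside endosomes and signals through TICAM1. Both routes end in phosphorylation of IRF3 and IRF7, which then switch on type I interferon genes such as IFNB1, whose enhancer also binds AP-1 and NF-kB. Secreted interferon acts on a cell surface receptor and brings STAT2 and IRF9 together in ISGF3, the complex that binds the interferon-stimulated response element (ISRE). IRF1 is an activator of many of the same elements, and IRF2 is its classic antagonist there. Most of these proteins are controlled by phosphorylation and movement into the nucleus, neither of which RNA levels measure.

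Library totals ran from 42860665 to 60853649 counts. JUN rose by 4.46 in EW8 and by 5.19 in TC71 on the log2 scale, and FOS by 4.87 and 7.08, transgene and endogenous reads being counted together. The 10 Ewing sarcoma markers were all above the floor of 6 counts in every group, and their summed level was between 2764 and 3304 CPM (counts scaled to a library of fixed size, with TMM factors) in all libraries. The summed level of 10 leukocyte markers was 91.3 to 101 CPM in EW8 and 19.4 to 35.7 CPM in TC71. It was made up mostly of PTPRC, a leukocyte surface phosphatase, in EW8, where the mean was 65.9 CPM with vehicle and 74.9 CPM with doxycycline. Of 5 markers of plasmacytoid dendritic cells (the blood cells known for high IRF7), CLEC4C, LILRA4 and SPIB were at or below the floor in every group. The other 2 were detected, TCF4, a factor that many other cell types also express, at 232 CPM in untreated EW8 and 166 CPM in untreated TC71, and IL3RA at 2.91 and 0.218 CPM. The summed level of the 5 markers in EW8 was 229 to 238 CPM with vehicle and 140.5 to 144.4 CPM with doxycycline. In TC71 it was 164 to 169 CPM with vehicle and 96.7 to 106 CPM with doxycycline. The part of cells with these markers in the IRF7 values was not tested. TC71 vehicle replicate 1 stood apart from the other 2 libraries of its group, with a chi-square per gene of 63.9 and 61.7 against 5.4 to 11.03 for the other replicate pairs. Where leaving it out changed the call of a gene named here, that is said beside the gene.

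With doxycycline in EW8, IFIH1, IRF1, IRF9 and STAT2 rose, by between 2.74- and 7.51-fold, while IRF2 rose by less and TLR3, IRF3 and IRF7 did not pass the test. In TC71, IRF1, IRF7 and IRF9 rose by between 2.42- and 2.85-fold, IFIH1 and STAT2 rose by less than the fold limit, and IRF3 fell. Calls required a log2 fold change beyond 1 in either direction and an adjusted p below 0.05 in edgeR's quasi-likelihood test with Benjamini-Hochberg adjustment over all 21013 genes tested, as for every adjusted p given here. Of the 8 genes tested, 4 were called higher in EW8 and 3 in TC71, and 0 were called lower in either line. Among these, IRF9 was counted only on exons outside its main transcript, as described below. At adjusted p alone, 43.9% of all tested genes moved in EW8 and 45.6% in TC71. The background was 11.4% of all tested genes called higher in EW8 and 12.3% in TC71, with 3.38% and 3.67% called lower. Since the genes were chosen with earlier results of these data known, these shares are a description and not a test. At adjusted p alone, 5 were higher and 0 lower in EW8, where 21.9% of all genes were higher and 22.0% lower, and 5 were higher and 1 lower in TC71, where 25.1% were higher and 20.4% lower. The TC71 split depended on the scaling, with 5283 genes higher and 4295 lower under TMM but 4453 and 5645 under upper-quartile scaling, which moved the median of all genes by -0.10 and left 4 of the 8 higher and 2 lower. The median log2 fold change of the 8 genes was 1.48 in EW8 and 0.35 in TC71, against -0.03 and 0.00 over all tested genes, and the EW8 median was 0.90 with IRF7 set at its bound. Fewer cells that express a gene and less RNA per cell cannot be told apart in these bulk samples.

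**Figure D1:**
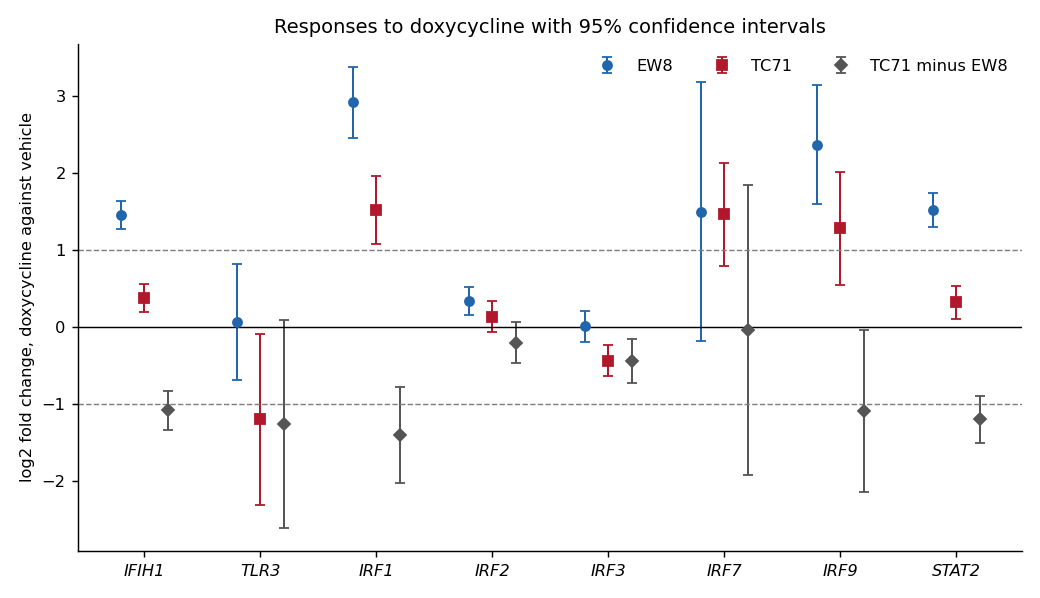
Log2 fold change of doxycycline against vehicle for the 8 tested genes in EW8 (blue circles) and TC71 (red squares), and the difference TC71 minus EW8 (gray diamonds), with 95% confidence intervals from edgeR and dashed lines at the fold limit of 1. IFIH1, IRF1 and STAT2 have a difference that lies below 0 with its whole interval, as does IRF3 with a smaller value, while IRF7 has a wide interval in EW8 where its counts were at the floor.

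Among the sensors, IFIH1 was strongly raised in one line and slightly in the other. IFIH1 (ENSG00000115267.6, minus strand, hg38 chr2:162267079-162318703) was at 23.6, 19.9 and 22.9 CPM in the EW8 vehicle libraries and at 63.5, 58.6 and 60.0 CPM with doxycycline. In TC71 it was at 16.2, 14.9 and 15.7 CPM with vehicle and at 21.4, 19.7 and 19.5 CPM with doxycycline. The groups did not overlap in either line, and the doxycycline libraries of TC71 reached only the range of untreated EW8. The log2 fold change was 1.45 ± 0.08 (SE, n = 3 per group) in EW8 (adjusted p = 9.2e-11) and 0.38 ± 0.09 in TC71 (adjusted p = 0.0015). The TC71 response was smaller by 1.08 ± 0.12 on the log2 scale (adjusted p = 3.1e-06). Non-overlapping libraries were common, at 26.9% of all tested genes in the upward and 29.1% in the downward direction in EW8, and 27.6% and 23.1% in TC71. IFIH1 lies between FAP, a fibroblast surface protease whose gene lies 21928 bp away, and GCA, a calcium-binding protein gene 137 bp away. FAP rose by 3.19 in EW8 and 2.99 in TC71 (log2), while GCA fell by 0.95 and 0.31, so the 3 neighbors did not share a direction.

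TLR3 (ENSG00000164342.12, plus strand, chr4:186069152-186088069) did not share the EW8 response of IFIH1. It was at 6.70, 5.12 and 6.93 CPM in EW8 with vehicle and at 5.51, 7.23 and 6.85 CPM with doxycycline. These libraries overlapped, and the log2 fold change was 0.06 (95% interval -0.69 to 0.81). In TC71 the gene was close to the detection floor, with 10, 78 and 36 counts in the vehicle libraries and 18, 18 and 4 counts with doxycycline. The groups overlapped, and the lowest vehicle library was the one that stood apart from its group. The log2 fold change in TC71 was -1.20 ± 0.53 (adjusted p = 0.073), and without TC71 vehicle replicate 1 it was -1.72 (adjusted p = 0.00054), which is past the threshold. Its response differed between the lines by -1.26 (adjusted p = 0.19), and by -1.82 without that library (adjusted p = 0.0035). The TLR3 call in TC71 therefore rested on whether 1 library was kept. It also depended on the scaling and on the filter for low counts, as given in the closing sections.

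**Figure D2:**
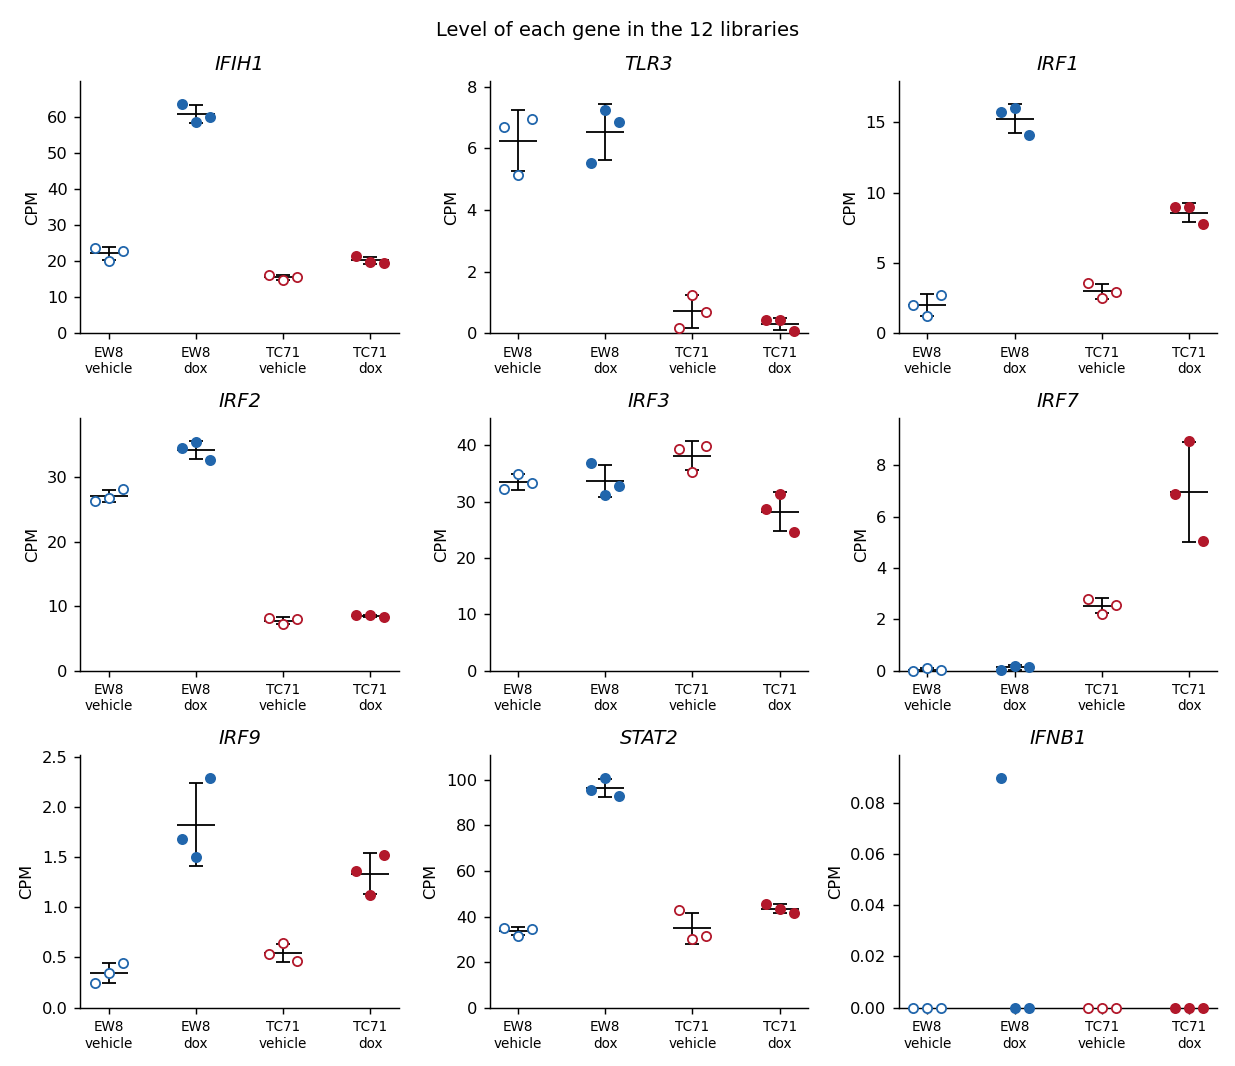
CPM of each of the 9 genes in the 12 libraries, as open circles for vehicle and filled circles for doxycycline (blue, EW8; red, TC71), with the group mean and SD of 3 libraries as bars except for IFNB1, which was not tested. IFIH1 and STAT2 stand apart in EW8 with doxycycline, IRF1 and IRF9 rise in both lines, and IRF7 has a visible level in TC71 only. IRF2 and TLR3 are separated mainly by line, although the IRF2 doxycycline libraries also lie slightly above the vehicle libraries of each line.

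IRF1 had the largest fitted response in both lines, although in TC71 that of IRF7 lay within its error. IRF1 (ENSG00000125347.13, minus strand, chr5:132481609-132490798) was at 2.05, 1.22 and 2.77 CPM in EW8 with vehicle and at 15.7, 15.99 and 14.1 CPM with doxycycline. In TC71 it was at 3.57, 2.51 and 2.95 CPM with vehicle and at 8.97, 8.96 and 7.78 CPM with doxycycline. Every doxycycline library was above every vehicle library of its line. The log2 fold change was 2.91 ± 0.22 in EW8 (7.51-fold, adjusted p = 3.4e-09) and 1.51 ± 0.21 in TC71 (2.85-fold, adjusted p = 8.2e-06). The response was smaller in TC71 by 1.40 ± 0.30 (adjusted p = 0.0023). Of the exon bases counted for IRF1, 22.0% are also exons of genes on the opposite strand, mainly IRF1-AS1, and reads there were dropped as ambiguous. IRF1-AS1 itself did not pass the test in either line, with log2 fold changes of 0.72 in EW8 (adjusted p = 0.12) and -0.12 in TC71 (adjusted p = 0.84).

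IRF2, the antagonist of IRF1, differed mainly between the lines. IRF2 (ENSG00000168310.10, minus strand, chr4:184387713-184474580) was at 26.4, 26.9 and 28.2 CPM in EW8 with vehicle and at 34.5, 35.5 and 32.8 CPM with doxycycline. In TC71 it was at 8.12, 7.17 and 8.04 CPM with vehicle and at 8.63, 8.58 and 8.33 CPM with doxycycline. All EW8 libraries were above all TC71 libraries, and the treated groups did not overlap with their controls in either line. The log2 fold change was 0.34 ± 0.09 in EW8 (adjusted p = 0.0041), below the fold limit, and 0.13 in TC71 (95% interval -0.07 to 0.33, adjusted p = 0.28). The difference between the responses was -0.20 (95% interval -0.47 to 0.07).

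The level of IRF1 relative to IRF2 within a library, each divided by its exon length, does not depend on how libraries are scaled. The log2 ratio was -5.01, -5.78 and -4.67 in the EW8 vehicle libraries and -2.46, -2.47 and -2.54 with doxycycline. In TC71 it was -2.51, -2.84 and -2.77 with vehicle and -1.27, -1.26 and -1.42 with doxycycline. IRF1 RNA stayed below IRF2 RNA in all 12 libraries, also with IRF1 taken over its unshared exon bases, where the highest ratio was -0.90, and EW8 with doxycycline reached about the ratio of untreated TC71. The ratio rose by 2.66 in EW8 (6.34-fold) and by 1.39 in TC71 (2.62-fold), each with a two-sided exact permutation p of 0.1, the smallest that 3 against 3 libraries allow.

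**Figure D3:**
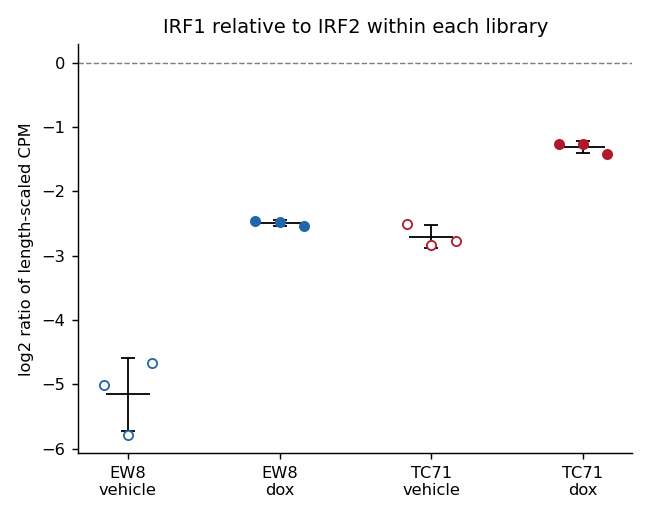
Log2 ratio of IRF1 to IRF2, both as CPM per exon length, in each library (open circles, vehicle; filled circles, doxycycline), with the group mean and SD of 3 libraries as bars. The dashed line at 0 marks equal levels, and all 12 libraries lie below it, the highest being TC71 doxycycline replicate 2 at -1.26.

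IRF3, the factor that most cells hold ready in an inactive form, moved little at the RNA level. IRF3 (ENSG00000126456.15, minus strand, chr19:49659569-49665875) was at 32.2, 34.9 and 33.3 CPM in EW8 with vehicle and at 36.8, 31.2 and 32.8 CPM with doxycycline. In TC71 it was at 39.4, 35.2 and 39.9 CPM with vehicle and at 28.7, 31.4 and 24.6 CPM with doxycycline. The EW8 groups overlapped, with a log2 fold change of 0.01 (95% interval -0.19 to 0.21), whereas all TC71 doxycycline libraries were below the vehicle libraries. IRF3 fell by 0.44 ± 0.09 on the log2 scale in TC71 (adjusted p = 0.00093), and its response differed between the lines by -0.44 ± 0.13 (adjusted p = 0.026), which was lost at an adjusted p of 0.067 and 0.077 when EW8 vehicle replicate 1 or TC71 doxycycline replicate 3 was left out. BCL2L12, which shares 19.3% of the exon bases of IRF3 on the opposite strand, had log2 fold changes of -0.03 in EW8 and -0.02 in TC71, and neither passed the test.

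IRF7, the inducible partner of IRF3, was detected well in one line only. IRF7 (ENSG00000185507.20, minus strand, chr11:612553-615999) had 0, 4 and 2 counts in the EW8 vehicle libraries and 2, 10 and 6 counts with doxycycline. In TC71 it had 146, 138 and 132 counts with vehicle and 284, 374 and 221 counts with doxycycline, or 2.79, 2.22 and 2.56 CPM against 6.88, 8.94 and 5.03 CPM. Every TC71 library was above every EW8 library, and the TC71 groups did not overlap. Between the untreated lines, 29.6% of all tested genes were higher and 35.2% lower in TC71 without overlap. IRF7 rose by 1.46 ± 0.32 in TC71 (2.75-fold, adjusted p = 0.00087). In EW8 the vehicle group was at the floor and the change did not pass the test (adjusted p = 0.13), although it did without EW8 doxycycline replicate 1 (adjusted p = 0.035). A response of IRF7 in EW8 was not measurable at this depth, and its difference between the lines had a 95% interval of -1.92 to 1.84 (log2).

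STAT2 and IRF9 are subunits of ISGF3. STAT2 (ENSG00000170581.13, minus strand, chr12:56341597-56360155) was at 34.9, 31.6 and 34.4 CPM in EW8 with vehicle and at 95.5, 101 and 93.0 CPM with doxycycline. In TC71 it was at 42.8, 30.1 and 31.6 CPM with vehicle and at 45.4, 43.5 and 41.4 CPM with doxycycline. The EW8 groups were far apart, whereas in TC71 vehicle replicate 1, the library that stood apart, lay within the doxycycline range. STAT2 rose by 1.52 ± 0.10 in EW8 (2.86-fold, adjusted p = 8.3e-10) and by 0.32 ± 0.10 in TC71 (adjusted p = 0.016), or 0.41 without that library. With upper-quartile scaling the TC71 change of STAT2 was 0.20 and no longer passed (adjusted p = 0.13). The TC71 response was smaller by 1.20 ± 0.14 (adjusted p = 7.6e-06).

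IRF9 (ENSG00000213928.8, plus strand, chr14:24161053-24166565), which carries the DNA-binding part of ISGF3, had low counts. It had 11, 16 and 25 counts in EW8 with vehicle and 94, 76 and 100 with doxycycline, and 28, 40 and 24 in TC71 with vehicle and 56, 47 and 67 with doxycycline. The groups did not overlap in either line. IRF9 rose by 2.36 ± 0.36 in EW8 (5.15-fold, adjusted p = 3.3e-05) and by 1.28 ± 0.35 in TC71 (2.42-fold, adjusted p = 0.0055). The difference of -1.09 ± 0.50 between the lines did not pass the test (adjusted p = 0.15). All 1626 bases of its main transcript are also exons of a same-strand readthrough gene (ENSG00000259529, which joins RNF31 to IRF9), so that the counts of IRF9 came from reads on its other exons. The readthrough gene had 8, 9 and 16 counts in EW8 with vehicle and 44, 59 and 30 with doxycycline, a change that did not pass the test (adjusted p = 0.092). The level of IRF9 is therefore understated and cannot be set against that of other genes. Its fold changes, calls and correlations likewise describe those other exons, and the change of its main transcript was not measured.

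IFNB1 (ENSG00000171855.6, minus strand, chr9:21077105-21077963) was not detected above the floor. It had 5 counts in EW8 doxycycline replicate 1 and 0 counts in the other 11 libraries, and was too low to be tested. A count of 6, taken as the floor because each mate of a read pair was counted, was worth 0.0966 to 0.145 CPM depending on the library. A level of IFNB1 below that would not be seen. Of the other 21 interferon genes listed, 18 were at or under 6 counts in every library. IFNA21 reached 8 counts and IFNE 15 counts in single EW8 doxycycline libraries. The third was IFNK, which encodes interferon kappa, a type I interferon best known in keratinocytes. IFNK had 0 counts in all 6 vehicle libraries, 112, 112 and 93 counts in EW8 with doxycycline and 60, 58 and 18 in TC71. Against the floor, the rise was of at least 4.08 in EW8 and 3.31 in TC71 on the log2 scale (adjusted p = 1.9e-06 and 5.5e-06). IFNK (chr9:27524314-27526498) lies within an intron of MOB3B on the opposite strand, shares 0 exon bases with it, and strand was not used in counting. MOB3B rose as well, from 24 to 42 counts to 294 to 386 in EW8 and from 4 to 10 counts to 117 to 175 in TC71, and the part of its RNA in the IFNK counts was not tested.

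The windows from 250 bases before to 50 bases after the annotated start were available from RefSeq (GRCh38.p14) for 6 of the 9 genes, IRF2, IRF3 and IRF7 being the others. They were searched on both strands for GAAANNGAA (the ISRE core), TTCNNNGAA (GAS, the element of STAT dimers), TGAGTCA (AP-1), TGACGTCA (CRE), and GGGAAATTC or GGGACTTTC (NF-kB). The 4 genes called in EW8 and IFNB1 are shown because they are the genes whose responses, or lack of reads, the comparison turns on. Sequences run 5′ to 3′ on the gene's own strand, with matches to any of these motifs in capitals.
IFIH1, chr2:162318635-162318934, minus strand: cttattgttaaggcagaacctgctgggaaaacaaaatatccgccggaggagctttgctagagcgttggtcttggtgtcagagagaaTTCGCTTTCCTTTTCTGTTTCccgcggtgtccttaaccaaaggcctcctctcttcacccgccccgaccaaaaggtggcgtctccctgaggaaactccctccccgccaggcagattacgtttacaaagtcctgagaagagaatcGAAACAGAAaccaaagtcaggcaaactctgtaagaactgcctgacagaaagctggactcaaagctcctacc
IRF1, chr5:132490724-132491023, minus strand: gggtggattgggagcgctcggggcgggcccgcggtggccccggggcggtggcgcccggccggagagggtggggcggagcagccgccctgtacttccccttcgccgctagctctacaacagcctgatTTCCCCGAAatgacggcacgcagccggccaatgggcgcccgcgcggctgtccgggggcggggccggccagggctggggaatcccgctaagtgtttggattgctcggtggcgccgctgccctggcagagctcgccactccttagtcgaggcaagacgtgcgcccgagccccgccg
IRF9, chr14:24161015-24161314, plus strand: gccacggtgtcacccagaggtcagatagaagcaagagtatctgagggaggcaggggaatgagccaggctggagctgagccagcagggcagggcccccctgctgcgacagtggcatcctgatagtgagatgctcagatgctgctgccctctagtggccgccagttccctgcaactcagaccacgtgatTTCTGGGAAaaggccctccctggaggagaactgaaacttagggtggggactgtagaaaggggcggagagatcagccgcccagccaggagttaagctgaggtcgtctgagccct
STAT2, chr12:56360058-56360357, minus strand: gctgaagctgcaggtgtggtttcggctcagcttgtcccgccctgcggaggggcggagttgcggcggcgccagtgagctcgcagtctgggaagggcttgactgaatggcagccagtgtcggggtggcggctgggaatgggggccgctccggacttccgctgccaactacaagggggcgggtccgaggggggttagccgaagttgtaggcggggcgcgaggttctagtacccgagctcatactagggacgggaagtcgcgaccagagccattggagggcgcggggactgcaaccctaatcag
IFNB1, chr9:21077893-21078192, minus strand: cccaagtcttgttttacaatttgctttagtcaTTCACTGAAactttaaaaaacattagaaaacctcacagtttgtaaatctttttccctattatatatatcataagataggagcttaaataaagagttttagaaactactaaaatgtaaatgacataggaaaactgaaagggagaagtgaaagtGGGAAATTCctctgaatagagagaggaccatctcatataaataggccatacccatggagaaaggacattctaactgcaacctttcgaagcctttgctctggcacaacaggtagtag

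The window of IFIH1 held 4 ISRE cores, 3 of them overlapping one another on the strand opposite to the printed one between bases -164 and -144, and the fourth on the printed strand at -21 to -13, counted from the start. IRF1 held 1 GAS match at -124 to -116, and IRF9 held 1 at -63 to -55. STAT2 held 0 matches to any motif searched. IFNB1 held the NF-kB match at -66 to -58 and a GAS match at -218 to -210. TLR3, whose window is not shown, held 1 ISRE core across the start (-3 to 6) and GAS matches at -178 to -170 and -50 to -42. No match to the exact AP-1 or CRE letters stood in the 6 windows. Sites that differ from the searched letters by even a single base were missed. The search therefore does not show that a window, that of IFNB1 included, lacks AP-1 or NF-kB sites. Of all 35116 windows of this length in the table, 8.11% held the ISRE core, 7.66% GAS, 4.95% AP-1, 1.85% CRE and 0.789% the NF-kB letters. A match is a run of letters and not a measured binding site, and sites farther from the start lie outside the windows.

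On a common scale of CPM per kilobase of exon, IRF3, IRF2, STAT2 and IFIH1 were the most abundant of the genes in untreated EW8, at 8.82 ± 0.36, 8.71 ± 0.30, 5.51 ± 0.29 and 4.34 ± 0.38 (SD, n = 3). The other tested genes were at 0.93 (TLR3), 0.258 (IRF1) and 0.0156 (IRF7), with IRF9 left out for its lost reads. IRF3 and IRF2 lay within each other's spread on this scale. With doxycycline the EW8 order became STAT2 at 15.8 ± 0.64, IFIH1 at 11.9 ± 0.50, IRF2 at 10.99 ± 0.45 and IRF3 at 8.86 ± 0.76, with IRF1 at 1.96 ± 0.13. In untreated TC71, IRF3 led at 10.1 ± 0.68, followed by STAT2 at 5.70 ± 1.14, IFIH1 at 3.05 ± 0.13, IRF2 at 2.49 ± 0.17 and IRF7 at 0.960 ± 0.108. With doxycycline in TC71, IRF3 at 7.44 ± 0.90 and STAT2 at 7.11 ± 0.33 lay within each other's spread, and IRF7 at 2.65 ± 0.74 lay beside IRF2 at 2.73 ± 0.05. The place of IRF3 in these orders depended on the length used, since reads on the 19.3% of its exon bases shared with BCL2L12 were dropped. Per kilobase of unshared exon, a scale chosen after seeing the data, IRF3 was at 10.9 ± 0.45 in untreated EW8, above IRF2 in every library, and at 10.99 ± 0.94 with doxycycline, overlapping with IFIH1 and IRF2. In both TC71 groups IRF3 was above STAT2 in every library, at 12.5 ± 0.84 with vehicle and at 9.22 ± 1.11 with doxycycline. STAT2 was above IRF3 in all EW8 doxycycline libraries on both scales. Per kilobase of unshared exon, IRF1 was at 0.331 and 2.51 in EW8 and at 0.495 and 1.41 in TC71, without and with doxycycline. Both scales start from all annotated exon bases of a gene, 3794 for IRF3 and 6109 for STAT2. Their main transcripts have 1595 and 4405 bases. Orders per kilobase of main transcript were not computed, so the orders given hold for the annotated exon lengths only.

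**Figure D4:**
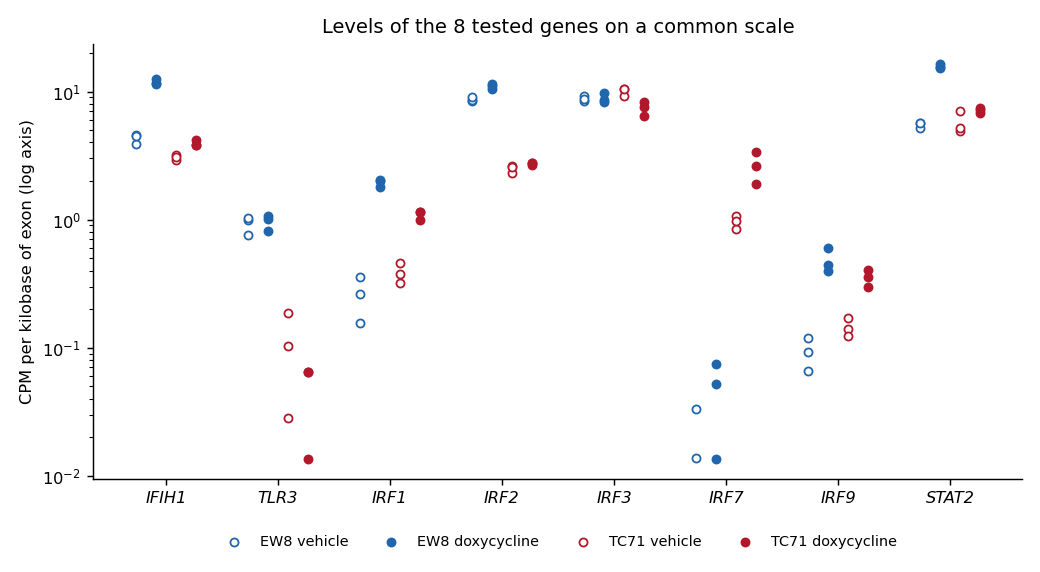
CPM per kilobase of exon of the 8 tested genes in each library on a log axis (open circles, vehicle; filled circles, doxycycline; blue, EW8; red, TC71), where EW8 vehicle replicate 1 is not drawn for IRF7 because it had 0 counts. TLR3, IRF2 and IRF7 are separated by line, with TLR3 and IRF2 higher in EW8 and IRF7 higher in TC71, and IRF9 is drawn lower than its true level because of reads dropped in counting.

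Untreated, the lines differed most in IRF7, TLR3 and IRF2. IRF7 was at least 20.3-fold higher in TC71 than in EW8 (adjusted p = 1.7e-08). TLR3 was 8.56-fold lower (log2 -3.10 ± 0.41, adjusted p = 3.0e-06) and IRF2 3.50-fold lower in TC71 (log2 -1.81 ± 0.09, adjusted p = 6.8e-12). These 3 of 8 genes were called, 1 higher and 2 lower, against a background of 11.6% called higher and 18.9% lower, or 28.2% and 33.5% at adjusted p alone. At adjusted p alone IFIH1 was also lower in TC71 (log2 -0.51, adjusted p = 4.6e-05) and IRF1 higher (log2 0.57, adjusted p = 0.034). In all, 61.7% of the tested genes differed between the untreated lines at adjusted p alone. STAT2 had a log2 difference of 0.05 (95% interval -0.17 to 0.26), IRF3 of 0.19 (-0.01 to 0.39) and IRF9 of 0.64 (-0.15 to 1.43). STAT2 started from overlapping levels, with means of 33.6 CPM in EW8 and 34.8 CPM in TC71, and reached 96.4 and 43.4 CPM.

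The order of the 4 groups differed between genes. STAT2, IRF1 and IRF9 were highest in EW8 with doxycycline and next highest in TC71 with doxycycline, the libraries of the 2 groups overlapping for IRF9 only. IFIH1 and IRF2 were highest in both EW8 groups, with untreated EW8 and treated TC71 overlapping for IFIH1. IRF7 had the opposite order, with both TC71 groups on top. The difference of the responses was called for 3 genes (IFIH1, IRF1 and STAT2), all smaller in TC71, where 2.87% of all genes were called smaller and 4.18% larger. At adjusted p alone IRF3 joined them, against 7.07% of all genes smaller and 12.2% larger.

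By Pearson's r of log2 CPM over the 12 libraries, which share depth and line differences, the genes most like IFIH1 were OAS3 (0.99), an antiviral oligoadenylate synthetase, and TEK (0.989), a receptor tyrosine kinase. STAT2 was most like NOCT (0.983) and ANXA8L1 (0.98), IRF1 like C11orf96 (0.987) and SERPINE3 (0.982), and IRF9 like WDR44 (0.971) and TSPAN1 (0.969). TLR3 was most like B4GALT6 (0.981) and CHST10 (0.98), IRF2 like PIK3R5 (0.998) and PALM3 (0.997), and IRF7 like ISM2 (0.992) and TOX4 (0.989). IRF3 had the weakest partners, APRT and PRMT7 (both 0.917). Among the genes themselves, IFIH1 and STAT2 had an r of 0.941, IRF1 and IRF9 of 0.938, and TLR3 and IRF2 of 0.908, while IRF7 had -0.912 with TLR3 and -0.92 with IRF2.

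The other genes of the pathway were taken from fixed lists. Of 105 upstream genes other than JUN and FOS, 77 were tested, of which 25 were called higher and 1 lower in EW8 and 19 higher and 2 lower in TC71, with a median log2 fold change of 0.44 and 0.36. Over all tested genes, 11.4% were called higher and 3.38% lower in EW8, and 12.3% higher and 3.67% lower in TC71. Of 9 further nucleic acid sensors tested, 5 rose in each line. They included RIGI, the sister sensor of IFIH1 (log2 2.79 in EW8 and 1.46 in TC71), DHX58, a regulator of both (2.35 and 2.06), and AIM2, a sensor of cytoplasmic DNA (5.14 in EW8, and at least 1.73-fold higher in TC71). TLR7 was called lower in TC71 with 6, 4 and 2 counts against 0 in all treated libraries, so both groups were at the floor and no fold is given. TICAM1, the adaptor of TLR3, rose by 1.51 in EW8 and 1.15 in TC71, although TLR3 itself did not pass the test in either line. MAVS, the adaptor of IFIH1, had log2 fold changes of 0.00 in EW8 and 0.28 in TC71 (adjusted p = 0.98 and 0.0010), and TBK1, the kinase of IRF3, of 0.01 and -0.14 (adjusted p = 0.93 and 0.12). MAVS and TBK1 were named after their values were seen.

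Of 16 adaptors and kinases tested, 4 rose in EW8 and 2 in TC71, where 11.4% and 12.3% of all tested genes were called higher. TRIM25, the ubiquitin ligase of RIGI, rose by 1.36 in EW8 and, below the fold limit, by 0.61 in TC71 (adjusted p = 5.6e-08). IRAK1, a kinase below Toll-like receptors, rose by 1.32 in EW8 and by 0.84 in TC71 (adjusted p = 3.8e-09). UNC93B1, the chaperone that carries TLR3 to endosomes, rose by 2.66 in TC71 and by 0.93 in EW8 (adjusted p = 0.00024), where it passed the fold limit without EW8 vehicle replicate 3 or EW8 doxycycline replicate 3 (log2 1.05 for both). Of 4 surface Toll-like receptors tested, TLR1, TLR2 and TLR6 rose in both lines, by 1.46, 1.17 and 2.46 in EW8 and by 1.33, 4.39 and 1.38 in TC71. Of 5 other IRF family and IRF2-binding genes tested, IRF2BP2, a corepressor of IRF2, rose by 1.13 in EW8. IRF5 rose by 2.41 in TC71. With 1 library left out, the call of TLR1 was lost for 8 of the 12 libraries in each line. The call of TLR2 in EW8 was lost without EW8 vehicle replicate 2 or 3 (adjusted p = 0.057 and 0.064), and TICAM1 in TC71 fell short of the fold limit without TC71 vehicle replicate 1 (log2 0.95), as did TLR1 (log2 0.91).

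Of 10 further STAT and JAK genes tested, STAT4 rose by 2.15 in TC71, and it was also called in EW8 without EW8 vehicle replicate 2 or EW8 doxycycline replicate 1 (log2 1.55 and 1.21). Of 6 interferon receptor genes, IFNAR2, a chain of the type I receptor, rose by 1.04 in EW8, and IFNLR1, the type III receptor, by 1.28 in TC71. IFNAR2 fell short of the fold limit without EW8 vehicle replicate 1 or EW8 doxycycline replicate 3 (log2 0.93 and 0.87), and IFNLR1 without TC71 vehicle replicate 1 (log2 0.94). Of 20 feedback inhibitors, 7 rose and 1 fell in EW8 and 4 rose and 1 fell in TC71. The shares of all tested genes were 11.4% higher and 3.38% lower in EW8, and 12.3% and 3.67% in TC71. SOCS1 and SOCS3, which block JAK signaling, rose by 1.81 and 3.65 in EW8 and by 3.33 and 2.30 in TC71. CYLD, a deubiquitinase, rose by 2.76 and 1.48, and TNFAIP3 (A20), another inhibitor of NF-kB signaling, by 3.39 in EW8. HMGA1, an architectural protein of the IFNB1 enhancer, rose by 1.82 in EW8.

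Interferon-stimulated genes are the known targets of these IRF and STAT factors. Of 28 interferon-stimulated genes tested, 26 were called higher in EW8 and 17 in TC71, and 0 lower in either. Of all tested genes, 11.4% were called higher in EW8 and 12.3% in TC71. Their median log2 fold change was 2.73 in EW8 and 1.37 in TC71, or 1.20 in TC71 with genes at the floor set at their bound. OAS2, OASL and SAMD9L rose the most in EW8, by 6.69, 6.16 and 5.98. In TC71 SAMD9L was at least 14.6-fold, MX2 at least 10.3-fold and OAS2 at least 2.16-fold higher than with vehicle, where all 3 were at the floor. The response was called smaller in TC71 for 14 of the 28 genes and larger for 1, against 2.87% and 4.18% of all tested genes. JUN and FOS themselves rose more in TC71 than in EW8, by 0.73 and 2.21 on the log2 scale (adjusted p = 0.0022 and 6.4e-12). FOS started lower in TC71, at 11.7 against 36.8 CPM in EW8, and reached 1580 against 1078 CPM with doxycycline. JUN started at 20.7 CPM in TC71 and 21.6 CPM in EW8 and reached 755.5 and 474 CPM. Any link of these levels to the smaller TC71 response of IFIH1, IRF1 and STAT2 was not tested.

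**Figure D5:**
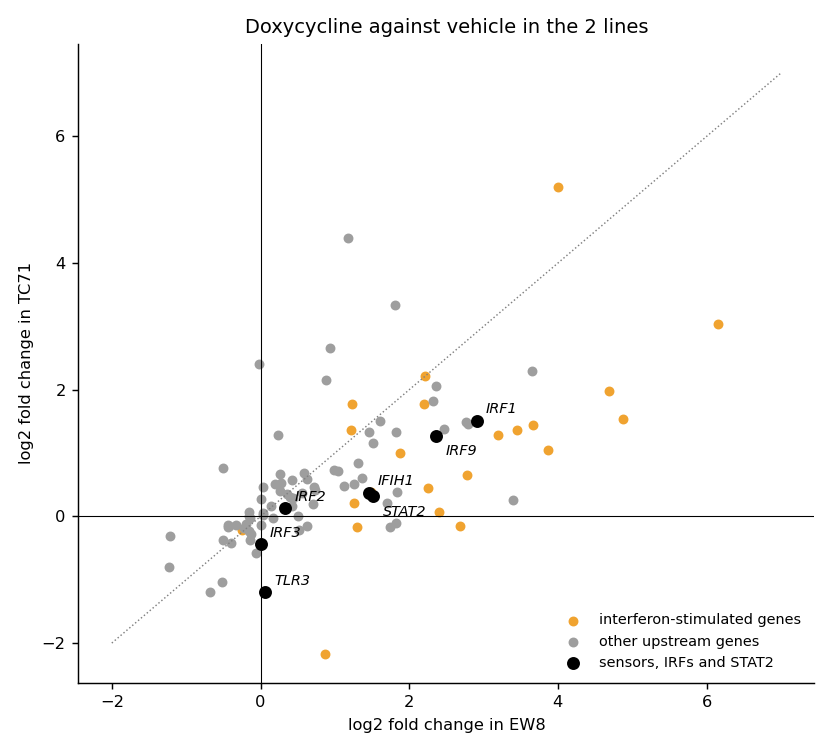
Log2 fold change with doxycycline in EW8 (horizontal axis) against TC71 (vertical axis) for 7 of the 9 genes (black), 72 upstream genes (gray) and 22 interferon-stimulated genes (orange), leaving out JUN, FOS and genes at the floor in either line, with a dotted line of equal response. All 7 black points, 17 of the orange and 42 of the gray points lie below the line. Among the black points, the differences of TLR3, IRF2 and IRF9 did not pass the test. Of the interferon-stimulated genes left out at the floor, MX1, MX2 and SAMD9L had the larger fitted response in TC71. OAS2, XAF1 and CXCL10, also left out, had the smaller. The share of all tested genes below the line was not counted, so these counts are a description. The median difference TC71 minus EW8 of all tested genes was 0.03. IRF7, left out at the floor, had a difference of -0.04.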

How the data were processed

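Strand-specific libraries of polyadenylated RNA were sequenced as read pairs, and the authors checked reads with FastQC, aligned them with STAR to hg38 and counted exons of GENCODE release 29 with featureCounts 2.0.1. The deposited values were raw counts per gene, and exon lengths in base pairs stood in the same table. Per the file headers, pairs, strand, multi-mapped reads and overlapping genes had no option set, so each mate was counted, strand was ignored and reads on 2 genes were dropped. Symbols were matched by identifier for 99.1% of genes.

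Low counts were removed with filterByExpr in edgeR 4.0.16 (R 4.3.3), which left 21013 genes with 99.95% of all counts. TMM scaling and 1 quasi-likelihood fit over the 12 libraries with 4 groups gave 4 contrasts, namely the doxycycline response of EW8, that of TC71, their difference (TC71 minus EW8), and untreated TC71 against untreated EW8. DESeq2 1.42.0 was run as an alternative, the authors having used that tool. CPM values used the same scaling. Groups with all libraries at or under 6 counts (3 read pairs) were treated as at the floor, which covers counting error only. The fit was tested on simulated data.

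The members and lists were chosen with earlier results of these data known. Other genes were named by rule: up to 3 called genes per list and line with the largest fold changes, and the 2 genes most correlated with each member. Some genes that this rule picks are not reported here. Neighbors and overlapping genes were named beside the member they touch.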

Additional observations from a re-analysis of the deposited data

Results flagged for a closer look

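Of 36 members and other genes named by rule and tested, 20 had a response to doxycycline that differed between the lines at an adjusted p under 0.05 (edgeR's interaction term, TC71 minus EW8 on the log2 scale), 14 with the smaller response in TC71 and 6 with the larger. Over all tested genes, 19.3% differed in either direction at that threshold. Genes other than the members were picked for a large fold change in a line, so the count of 20 is not comparable with that share. Among the members, the response differed for IFIH1 (-1.08), IRF1 (-1.40), STAT2 (-1.20) and IRF3 (-0.44). The response was also smaller in TC71 for RIGI (-1.34), TRIM25 (-0.75), IRAK1 (-0.47), IRF2BP2 (-0.65), SOCS3 (-1.35), TNFAIP3 (-3.13), CYLD (-1.28), HMGA1 (-1.93) and OASL (-3.13). The fitted difference of TLR7 was -5.16, but both TC71 groups were at the floor, so its size is no bound. The response was larger in TC71 for FOS (2.21), JUN (0.73), TLR2 (3.22), UNC93B1 (1.73), IRF5 (2.43) and IFNLR1 (1.04). With 1 library left out, the difference of IRF3 was lost without EW8 vehicle replicate 1 or TC71 doxycycline replicate 3, and that of IFNLR1 without EW8 doxycycline replicate 2 or 3 (adjusted p = 0.055 and 0.051). A difference was gained by TLR3 (-1.82, adjusted p = 0.0035) and TICAM1 (-0.60, adjusted p = 0.0032) without TC71 vehicle replicate 1, by TLR6 without that library or EW8 vehicle replicate 2 (-1.15 and -1.55, adjusted p = 0.039 and 0.0058), and by SAMD9L without EW8 vehicle replicate 3 (adjusted p = 0.041, its size being no bound because all TC71 vehicle libraries had 0 counts).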

How the results depend on the processing

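Of 687 member values under an alternative, 672 kept their direction and side of the threshold, 8 lost the call, 7 gained it and 0 changed the direction of a call. Called lower in TC71 was 0 members, and 1 (TLR3) with library size alone, upper-quartile scaling or no filter on low counts (IRF3 being the 1 with no fold limit), and 0 to 1 with a library left out. At adjusted p alone it was 1, and 2 under the first 3 of these, and 1 to 2 with a library left out. A test against a log2 fold change of 1 left 1 member called higher in TC71 and 0 called smaller there, and 0 other pathway genes called lower in EW8 and 1 in TC71. With no fold limit, 5 members were called higher in TC71, 2 higher in TC71 than in EW8 with vehicle, and of the other pathway genes 9 lower in EW8 and 59 higher and 11 lower in TC71. Requiring 10 counts in every library removed TLR3 and IRF7, which left 0 members called higher and 1 lower in untreated TC71. It left 20 other pathway genes called higher and 0 lower in TC71, and 0 called lower in EW8, or 5 at adjusted p alone. Members higher in untreated TC71 at adjusted p alone were 1 to 3 with a library left out.

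Other pathway genes called lower numbered 2 in EW8 with counts halved and, in TC71, 4 without a filter, 1 with the TC71 libraries fitted alone and 1 to 4 with a library left out. At adjusted p alone, other pathway genes lower in TC71 numbered 18 with library size alone, 19 with upper-quartile scaling, 17 with counts halved and 8 to 18 with a library left out, the 18 being without TC71 vehicle replicate 1. In EW8 they numbered 5 to 9 with a library left out. Other causes of these shifts were not tested. Depth limits TLR3 in TC71, IRF7 in EW8 and IFNB1. IRF9 is limited by the reads on its main transcript that were dropped in counting.

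The replicate numbers did not pair the samples, since the deviations of the 18 same-numbered pairs of libraries correlated at -0.03 to 0.02. With the replicate number as a block, the members called stayed at 4 in EW8 and 3 in TC71, and the other pathway genes called higher were 51 and 35.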

Other observations

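The cytoplasmic DNA route, which also ends at IRF3, is described here by genes chosen after their values were seen. CGAS, its sensor, was at 1.11 CPM in untreated EW8 and 30.1 CPM in untreated TC71. With doxycycline it rose by 0.63 ± 0.16 in EW8 (log2, adjusted p = 0.0030), and in TC71 its log2 fold change was -0.15 (adjusted p = 0.28). STING1, its adaptor, was at 33.4 and 37.6 CPM in EW8 and at 58.5 and 57.6 CPM in TC71, without and with doxycycline. USP18, an interferon-stimulated protease known to be brought to the type I receptor by STAT2, rose by 1.74 ± 0.12 in EW8, while its log2 fold change in TC71 was -0.17 (adjusted p = 0.24). The difference between the lines passed the test (adjusted p = 9.9e-08). IRF4 and IRF8, known mainly from blood cells, were too low to be tested in either line.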
